A study of Mus musculus with 12 samples.

Results

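The 10 tubulin genes described here are 5 β-tubulin genes (Tubb2a, Tubb2b, Tubb4b, Tubb5 and Tubb6) and 5 α-tubulin genes (Tuba1a, Tuba1b, Tuba1c, Tuba4a and Tuba8). They were taken by symbol from the 23849 gene symbols of the liver RNA-seq table, and were selected on their FPKM values at ZT12 against ZT0 in earlier work on these data. That difference is therefore given as a description, without a test. The table covers 12 livers of male C57BL/6J background mice, all fed a high-fat diet (HFD). The series design gives their age as 8 weeks, and whether this is the age at the start or at sampling is not stated here. Livers were taken at ZT0, when lights go on and the active phase ends, and at ZT12, when lights go off. Mice received vehicle (drinking water) or Libramed, a fiber-based product designed to act in the gut, by oral gavage once a day at ZT11 for the last 2 of 6 weeks on HFD. The 4 groups were vehicle at ZT0, vehicle at ZT12, Libramed at ZT0 and Libramed at ZT12, with 3 mice each. With gavage at ZT11, the time since the last gavage differed between ZT0 and ZT12 livers. It cannot be told apart from time of day. No group on normal diet was part of the table, so day and night are compared in HFD-fed liver only, and with 2 times of day the course between them was not sampled.

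Microtubules are hollow filaments built from dimers of α- and β-tubulin. In hepatocytes they carry vesicles of secreted proteins and lipoproteins and keep organelles in place. Mammals encode several isotypes of each subunit, nearly alike in protein sequence, whose mRNAs are used in different proportions by each tissue. Cells also adjust tubulin mRNA to the pool of free dimers: excess dimers trigger decay of tubulin mRNAs that are being translated, through the factor TTC5, which reads the first residues of the nascent chain.

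The coding starts are shown because they carry this shared signal. They are the first 30 coding bases, 5′ to 3′, from GENCODE vM21 transcripts on GRCm38 (mm10), with the first 4 codons in capitals.
Tubb2a: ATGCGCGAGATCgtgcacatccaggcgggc
Tubb2b: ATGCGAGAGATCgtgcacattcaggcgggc
Tubb4b: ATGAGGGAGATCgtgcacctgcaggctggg
Tubb5: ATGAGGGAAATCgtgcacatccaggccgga
Tuba1a: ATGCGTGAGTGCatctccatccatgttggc
Tuba1b: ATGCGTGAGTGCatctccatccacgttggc
Tuba1c: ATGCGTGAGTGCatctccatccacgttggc
Tuba4a: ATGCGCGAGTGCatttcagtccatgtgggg
Tuba8: ATGAGGGAATGCatatcggtccatgtgggt
Among the 5 α-tubulins, Tuba1a, Tuba1b and Tuba1c had identical first 4 codons, while no 2 of the β-tubulins shown did. These differences within a class do not change the residues. The first 4 codons of every β-tubulin shown encode methionine, arginine, glutamate and isoleucine. Those of every α-tubulin encode methionine, arginine, glutamate and cysteine. Over the whole coding sequence, identity was 80.2% to 96.5% between β-tubulin genes and 78.8% to 98.3% between α-tubulin genes, against 50.8% to 55.1% between the classes. The closest pair within each class was Tubb2a and Tubb2b, neighbours on chromosome 13, for β and Tuba1a and Tuba1b, neighbours on chromosome 15, for α.

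These copies limit what each value can say. Stretches of 100 bases, the read length, that also occur in transcripts of another gene made up 45.0% of the coding sequence of Tubb2a and 35.3% of that of Tubb4b. They made up 81.5% for Tuba1a, 90.9% for Tuba1b and 80.4% for Tuba1c, and 15.8% for Tuba8. None were found for Tubb5 and Tubb6. The authors' counting may have dropped or split reads from shared stretches, so the levels of the Tuba1 genes in particular are uncertain. Tuba4a shared no coding stretch, but 46.7% of its transcript overlapped Stk16, a kinase gene on the opposite strand. Stk16 lay between 23.0 and 28.0 FPKM in all 12 mice, with no separation by time.

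On mm10 the β-tubulin genes lie at chr13:34074274-34078007 (Tubb2a), chr13:34126748-34130466 (Tubb2b), chr2:25222160-25224702 (Tubb4b), chr17:35833921-35838306 (Tubb5) and chr18:67390717-67402749 (Tubb6). The α-tubulin genes lie at chr15:98949837-98953703 (Tuba1a), chr15:98931425-98934565 (Tuba1b), chr15:99029891-99038110 (Tuba1c), chr1:75214228-75219865 (Tuba4a) and chr6:121210696-121226854 (Tuba8). All are protein coding, and the transcript used had 4 exons in each gene but Tuba8, which had 5.

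Values are FPKM, fragments per kilobase of transcript scaled to library size, so that levels can be compared between genes. Read totals were not used here. Low values put the depth of the deepest library at 1.80 times that of the shallowest, Libramed ZT12 replicate 2, and 14581 to 15264 symbols were above 0 per library. The first principal component (33.0% of the variance) separated ZT0 from ZT12. The times on the labels were checked with clock genes: Dbp, an evening-peaking transcription factor, was higher at ZT12 by 3.05 in vehicle and 1.44 in Libramed on the log2(FPKM + 1) scale, and Arntl, the clock activator that peaks near dawn, changed by -1.65 and -1.35 (limma, adjusted p 0.0284, 0.00992, 0.0117 and 0.00663). Hepatocyte markers summed to 32772 FPKM or more in every library, although Alb, the albumin gene, was listed at 0 in all 12.

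Tubb2a was the tubulin with the widest difference between day and night. Tubb2a encodes a β-tubulin isotype best known from neurons. In vehicle mice it measured 111, 76.6 and 123 FPKM at ZT0 and 9.41, 26.6 and 22.4 FPKM at ZT12. In Libramed mice it measured 127, 90.4 and 100.04 FPKM at ZT0 and 41.3, 28.0 and 18.3 FPKM at ZT12. The lowest morning liver was 2.88 times the highest evening liver in vehicle, and 2.19 times in Libramed. Mean levels went from 103.7 ± 24.2 to 19.5 ± 8.97 FPKM in vehicle and from 105.9 ± 19.1 to 29.2 ± 11.5 FPKM in Libramed (SD, n = 3), that is 5.33-fold and 3.63-fold higher at ZT0. On the log2(FPKM + 1) scale the ZT12 minus ZT0 difference was -2.44 (SE 0.373) in vehicle and -1.88 (SE 0.275) in Libramed. Ordered from the most negative difference, Tubb2a was number 9 of the 9806 genes tested in vehicle and number 18 in Libramed. The last of the tubulin genes tested was Tubb6, at number 815 and 1210. The genes were chosen for this difference, so these places are description only.

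Tubb4b, a broadly expressed β-tubulin that is also found in cilia, had nearly the same morning level with a tighter spread. In vehicle it measured 94.8, 90.9 and 93.1 FPKM at ZT0 and 44.4, 36.0 and 39.9 FPKM at ZT12. In Libramed it measured 110.3, 79.0 and 98.5 FPKM at ZT0 and 46.0, 43.7 and 41.4 FPKM at ZT12. No evening liver reached a morning one, and the mean was 2.32-fold (vehicle) and 2.20-fold (Libramed) higher at ZT0. Tubb5, the ubiquitous β-tubulin of most cell types, measured 34.0, 28.8 and 34.0 FPKM at ZT0 and 11.8, 10.9 and 10.9 FPKM at ZT12 in vehicle. Under Libramed it measured 35.2, 27.1 and 30.3 FPKM at ZT0 and 12.7, 12.4 and 11.5 FPKM at ZT12. The evening values of Tubb5 were tight, and its mean was 2.87-fold and 2.53-fold higher at ZT0. Its sequence shared no 100-base stretch with another gene.

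Tubb6, a divergent β-tubulin, showed a smaller difference. Its vehicle values were 6.84, 8.57 and 3.84 FPKM at ZT0 and 4.26, 5.08 and 4.01 FPKM at ZT12, and these overlapped. Under Libramed they were 5.37, 5.81 and 6.23 FPKM at ZT0 and 4.55, 4.15 and 4.88 FPKM at ZT12, without overlap. Its log2 difference was -0.40 (SE 0.242) in vehicle and -0.30 (SE 0.0915) in Libramed. Tubb2b, a β-tubulin of developing neurons, was barely detected, with group means of 0.0289 to 0.0976 FPKM and overlapping times in both treatments.

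Among the α-tubulins, Tuba4a gave the highest level of the 10 genes. Tuba4a encodes an α-tubulin whose open reading frame lacks the final tyrosine codon that most α-tubulins carry. In vehicle it measured 157, 120.5 and 159 FPKM at ZT0 and 68.6, 76.1 and 69.3 FPKM at ZT12. In Libramed it measured 179, 132 and 174 FPKM at ZT0 and 104, 89.3 and 77.9 FPKM at ZT12. The times did not overlap, and the mean was 2.04-fold and 1.78-fold higher at ZT0. Tuba1c, one of the Tuba1 cluster of widely used α-tubulins, measured 52.9, 34.3 and 43.3 FPKM at ZT0 and 21.2, 22.0 and 24.5 FPKM at ZT12 in vehicle. With Libramed it measured 50.1, 36.6 and 35.1 FPKM at ZT0 and 29.01, 33.8 and 25.9 FPKM at ZT12. Its Libramed times came close to touching, the lowest morning value being 1.04 times the highest evening value, and its log2 difference was -0.90 (SE 0.157) in vehicle and -0.44 (SE 0.158) in Libramed.

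Tuba1b, the main α-tubulin of many dividing cells, measured 10.4, 5.20 and 8.24 FPKM at ZT0 and 5.19, 4.22 and 4.48 FPKM at ZT12 in vehicle. In Libramed it measured 9.25, 7.54 and 9.66 FPKM at ZT0 and 6.29, 3.41 and 3.96 FPKM at ZT12. The vehicle times were separated only by the distance from 5.19 to 5.20 FPKM. Tuba1a, the α-tubulin of developing neurons, stood at 2.17, 0.930 and 1.29 FPKM at ZT0 and 0.601, 1.24 and 0.454 FPKM at ZT12 in vehicle, with overlap. Under Libramed it stood at 1.67, 2.21 and 2.68 FPKM at ZT0 and 0.898, 0.645 and 0.406 FPKM at ZT12, without overlap. The log2 difference of Tuba1a was -0.48 in vehicle and -0.95 in Libramed with a pseudocount of 1, and -0.88 and -1.64 with a pseudocount of 0.1, as its level was low. Tuba8, an α-tubulin of muscle and testis, had group means of 0.294 to 0.891 FPKM and overlapping times in both treatments.

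**Figure D1:**
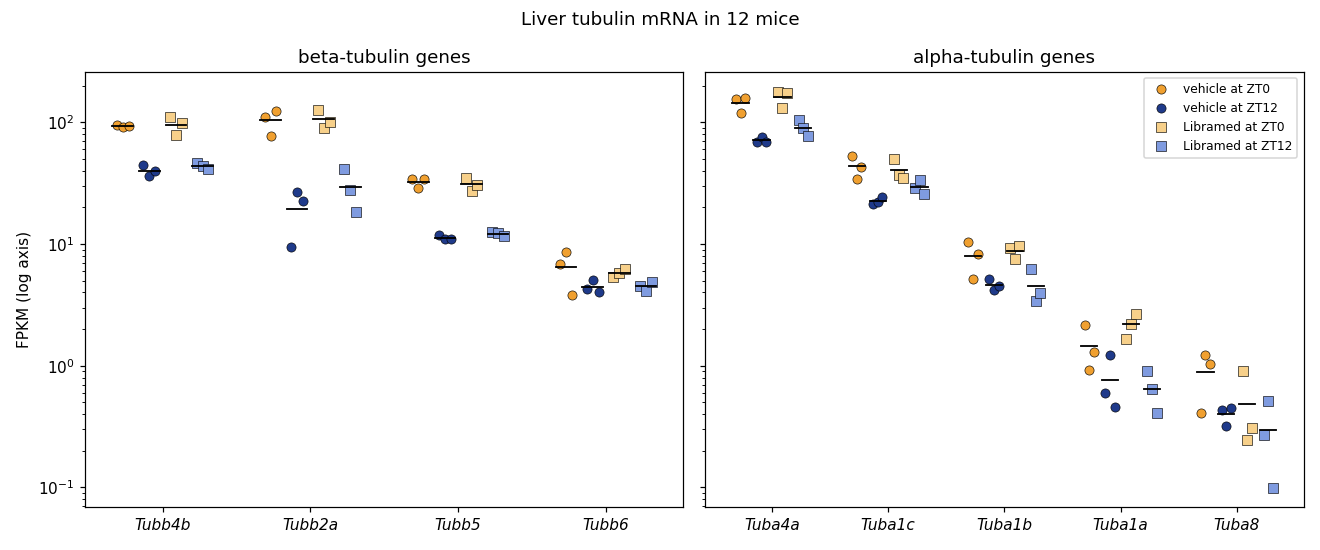
FPKM (log axis) of the tubulin genes in each of the 12 mice, β-tubulins on the left and α-tubulins on the right, with 1 symbol per mouse and a bar at the mean of each group of 3. The ZT0 symbols (orange shades) lie above the ZT12 symbols (blue shades) in both treatments for Tubb4b, Tubb2a, Tubb5, Tuba4a, Tuba1c and Tuba1b, and Tubb2b, with group means of 0.0976 FPKM or less, is not drawn.

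All 3 ZT12 values lay below all 3 ZT0 values for 6 of the 10 genes in vehicle, while 15.8% of all genes tested did so and 17.4% had the reverse. In Libramed it was 8 of the 10 genes, with 15.8% of all genes lower and 19.0% higher in this way. Both treatments showed it for 6 of the 10, with 7.89% of all genes. These counts follow from how the genes were chosen. Tubb2b and Tuba8 had means below the minimum of 1 FPKM over the 12 mice and were not tested. Neither is among the genes counted here, so beside the shares of all genes the counts are out of the 8 tested. Just above that minimum was Tuba1a at 1.27 FPKM, and just below it Tuba8 at 0.518 FPKM. In tissue RNA, fewer cells of a type and less RNA per cell cannot be told apart.

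The order of levels also changed with time. At ZT0 in vehicle mice Tuba4a was first at 145 FPKM, followed by Tubb2a at 103.7 and Tubb4b at 92.9 FPKM, and the values of Tubb2a overlapped those of both. Tuba1c (43.5 FPKM) and Tubb5 (32.3 FPKM) came next and were separated only by the distance from 34.0 to 34.3 FPKM. Tuba1b and Tubb6 overlapped, as did Tuba1a and Tuba8, and Tubb2b was last. At ZT12 Tuba4a (71.3 FPKM) and Tubb4b (40.1 FPKM) led without overlap, and Tubb2a (19.5 FPKM) came after Tuba1c, overlapping both Tuba1c (22.6 FPKM) above it and Tubb5 (11.2 FPKM) below it. Libramed mice had Tuba4a, Tubb2a and Tubb4b in front at ZT0, the last 2 with overlapping values. At ZT12 they had Tuba4a and Tubb4b in front, with Tubb2a and Tuba1c overlapping behind them.

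Summed over the 5 genes, β-tubulin mRNA was 205 to 254 FPKM at ZT0 and 70.0 to 78.6 FPKM at ZT12 in vehicle, and 202 to 278 against 76.2 to 105 FPKM in Libramed. The α-tubulin sum was 162 to 223 against 96.0 to 104 FPKM in vehicle, and 178 to 241 against 108 to 141 FPKM in Libramed. The β sum was thus lower by a larger factor than the α sum. The ratio of β to α sum lay between 1.11 and 1.26 at ZT0 and between 0.728 and 0.779 at ZT12 in vehicle, and between 1.06 and 1.16 and between 0.692 and 0.742 in Libramed. No liver of one time had the ratio of the other. Within the β sum the share of Tubb2a was 37.4% to 48.5% at ZT0 and 13.4% to 33.9% at ZT12 in vehicle, and 42.5% to 45.8% and 24.0% to 39.5% in Libramed. Tuba4a made up 69.9% to 78.4% of the α sum in every liver. Losses of reads from shared stretches enter these sums, most of all through the Tuba1 genes.

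**Figure D2:**
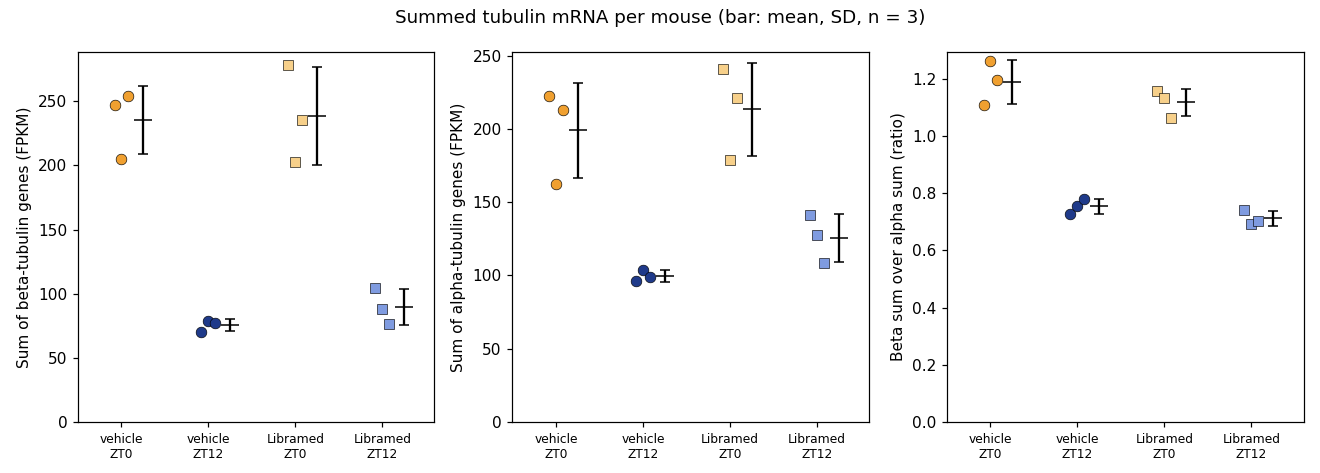
Summed FPKM of the 5 β-tubulin genes (left) and the 5 α-tubulin genes (middle), and the ratio of the sums (right), for each of the 12 mice, with the mean and SD of each group of 3 beside the symbols. All axes start at 0. The β over α ratio is 1.06 or more in every ZT0 liver and 0.779 or less in every ZT12 liver.

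In some livers most of the genes deviated to the same side. Vehicle ZT0 replicate 1 was above its group mean (log2 scale) for 8 of the 8 genes tested, and replicate 2 for 1 of 8. Of the Libramed ZT12 livers, replicate 1 was above the mean for 7 of 8 and replicate 3 for 1 of 8. The vehicle ZT12 livers showed no such pattern, with 3, 4 and 2 of 8 genes above the mean. The Libramed ZT0 livers had 6, 2 and 5 of 8 genes above the mean. Among them Tubb2a, Tubb4b, Tubb5, Tuba4a and Tuba1b were lowest in replicate 2, Tubb6 and Tuba1a in replicate 1 and Tuba1c in replicate 3. The share of all genes above the mean was not computed for any liver. Whether sampling time, RNA quality or the animals differed between these livers was not tested.

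Promoters are shown for the 3 β-tubulin genes with the widest differences. Each is the 250 bases before the start of the gene in RefSeq (GRCm38.p6), 5′ to 3′ on the gene's strand, with matches to the motifs searched in capitals. The windows are chr13:34078009-34078258 (Tubb2a), chr2:25224703-25224952 (Tubb4b) and chr17:35838302-35838551 (Tubb5), all on the minus strand.
Tubb2a: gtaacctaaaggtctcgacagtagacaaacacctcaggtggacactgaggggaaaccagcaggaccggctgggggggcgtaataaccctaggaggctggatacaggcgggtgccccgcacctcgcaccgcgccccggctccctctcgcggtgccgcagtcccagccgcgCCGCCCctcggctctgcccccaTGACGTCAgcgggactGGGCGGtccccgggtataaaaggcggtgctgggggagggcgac
Tubb4b: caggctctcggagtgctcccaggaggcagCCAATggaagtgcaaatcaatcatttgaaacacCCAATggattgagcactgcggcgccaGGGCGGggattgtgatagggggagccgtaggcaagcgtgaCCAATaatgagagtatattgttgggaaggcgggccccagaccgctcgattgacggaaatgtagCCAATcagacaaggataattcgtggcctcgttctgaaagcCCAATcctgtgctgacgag
Tubb5: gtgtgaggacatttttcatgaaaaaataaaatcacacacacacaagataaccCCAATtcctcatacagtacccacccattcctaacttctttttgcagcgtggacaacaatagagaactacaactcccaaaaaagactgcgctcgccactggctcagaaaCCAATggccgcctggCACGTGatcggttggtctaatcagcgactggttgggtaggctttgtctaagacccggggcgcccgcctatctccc
Of the 10 genes, 8 had a promoter in the RefSeq table, and Tubb2b and Tubb6 did not. The search used both strands, over 250 bases before to 50 after the start, in these 8 and in all 27025 promoters of the table. CACGTG, the E-box bound by CLOCK and BMAL1, occurred in Tubb5 (first base at -75) and Tuba8, and in 7.24% of all promoters. TTATGTAA, the D-box bound by DBP and its relatives, was in none of the 8 and in 0.955% of all. AGGTCA, the core of sites for REV-ERB and ROR nuclear receptors, was in Tuba8 and in 16.0% of all. CCAAT, bound by NF-Y, was in Tubb4b, Tubb5, Tuba1a and Tuba1c and in 37.9% of all, with 5 matches in Tubb4b. GGGCGG, the GC box bound by SP1, was in 6 of the 8 (not in Tuba1c or Tuba8) and in 35.9% of all. GAANNTTC, part of the heat shock element, and the CArG box bound by SRF were in none of the 8, and in 7.95% and 1.57% of all. TGACGTCA, the element bound by CREB, was added to the search after the Tubb2a sequence had been read, and was in Tubb2a alone (first base at -59) and in 1.88% of all promoters. No motif was held by all 6 genes that were lower at ZT12 in both treatments.

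Libramed and vehicle were compared at each time to ask whether the product altered tubulin mRNA. No tubulin gene passed an adjusted p under 0.05 in any treatment comparison, and neither did any other of the 9806 genes (0.0%). At ZT0 none of the 8 genes tested had an unadjusted p under 0.05, with 9.23% of all genes below it. Differences (Libramed minus vehicle, log2 scale) ran from -0.09 for Tuba1c to 0.39 for Tuba1a.

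At ZT12 Tuba1c and Tuba4a were higher in Libramed at unadjusted p under 0.05, 2 of 8 genes against 6.74% of all. Tuba1c was 22.6 ± 1.69 FPKM in vehicle and 29.6 ± 3.97 FPKM in Libramed (SD, n = 3). The difference was 0.37 (SE 0.110, limma adjusted p = 0.729). Tuba4a was 71.3 ± 4.14 FPKM in vehicle and 90.5 ± 13.3 FPKM in Libramed, a difference of 0.33 (SE 0.114, limma adjusted p = 0.729). All 3 Libramed livers lay above all 3 vehicle livers for both genes, and 13.1% of all genes had no overlap in either direction. Between 3 livers and 3 an exact permutation test cannot go below p = 0.1. Tuba4a no longer passed the unadjusted threshold without vehicle ZT12 replicate 1 (0.30) or 3 (0.31), or Libramed ZT12 replicate 1 (0.22) or 2 (0.34), and Tuba1c did not in a fit over all 12 mice. Tubb2a had the largest difference at ZT12, 0.61 (SE 0.418, limma adjusted p = 0.766), with overlapping values.

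Over both times, Tuba4a was higher in Libramed by 0.24 (SE 0.105, limma adjusted p = 0.468). It alone of the 8 passed the unadjusted threshold, as did 10.5% of all genes. An exact permutation test over the 400 arrangements of treatment within time gave a two-sided p of 0.075 for Tuba4a, where 0.005 was the smallest p possible. In the limma fit it no longer passed the unadjusted threshold without vehicle ZT0 replicate 2, vehicle ZT12 replicate 1 or 3, Libramed ZT0 replicate 1 or 3, or Libramed ZT12 replicate 1 or 2, and the difference ran from 0.18 to 0.31 over the 12 omissions. The other 7 genes differed by -0.02 to 0.32.

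The interaction asks whether the difference between ZT12 and ZT0 depended on treatment. None of the 8 genes had p under 0.05 (6.63% of all genes did). For Tubb2a the difference was smaller in Libramed by 0.56 (SE 0.512, limma adjusted p = 0.878). Tuba1c had the lowest p, with an interaction of 0.46 (SE 0.238, limma adjusted p = 0.764). With 3 mice per group these standard errors leave room for sizeable differences between treatments.

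**Figure D3:**
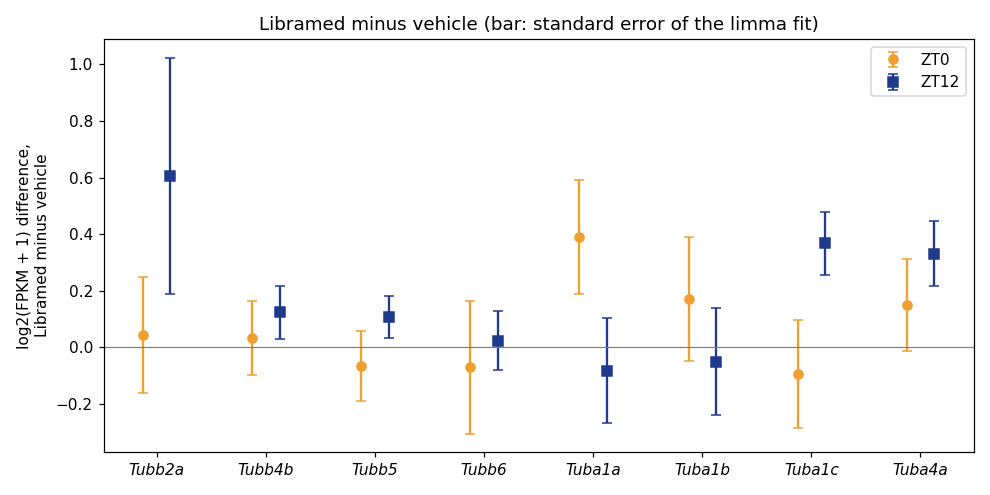
Libramed minus vehicle difference on the log2(FPKM + 1) scale for the 8 tubulin genes tested, at ZT0 (circles) and ZT12 (squares), with bars for the standard error of the limma fit of 6 mice. Tuba1c (0.37) and Tuba4a (0.33) at ZT12 lie more than 2 standard errors above 0, and Tubb2a at ZT12 (0.61) has the widest bar.

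Genes that fold tubulin, modify it or work on microtubules were described next, from 7 lists with 108 genes, of which 81 passed the minimum of 1 FPKM. In vehicle 0 were higher and 4 lower at ZT12 (limma, adjusted p under 0.05), 4.94% of the 81, while 5.62% of all genes tested were higher and 4.78% lower. The median log2 difference was -0.0045 for the 81 and 0.0078 for all genes. In Libramed 2 were higher and 0 lower, 2.47% of the 81, against 7.0% higher and 5.36% lower of all genes, with medians of 0.0105 and 0.0131. Not one of the 81 was called in both treatments.

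The called genes, named after their values were seen, took part in folding, modification, transport and filament growth. In vehicle they were Tbcb (-0.62, adjusted p = 0.00945), a cofactor that folds α-tubulin, Atat1 (-0.66, 0.0101), the α-tubulin acetyltransferase, Dynll1 (-0.77, 0.0143), a dynein light chain, and Ttll12 (-0.37, 0.0367), of the tubulin tyrosine ligase-like family. In Libramed Tbcb just missed the call (-0.51, limma adjusted p = 0.0542), while Atat1 (-0.18), Dynll1 (-0.38) and Ttll12 (-0.06) were further from it. In vehicle Tbcb, Atat1 and Dynll1 lost the call without vehicle ZT12 replicate 2, Atat1 and Dynll1 also without replicate 3, and Ttll12 without any 1 of the 6 livers. In Libramed they were Klc4 (0.44, 0.0136), a kinesin light chain, and Clip1 (0.37, 0.0375), which binds growing microtubule ends. Klc4 kept the call without each of the 6 livers, while Clip1 lost it without each but Libramed ZT12 replicate 1.

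The 20 folding genes (the CCT ring, prefoldin and the tubulin cofactors) had a median of -0.03 in vehicle and 0.01 in Libramed, and their summed level was 957 to 1031 FPKM at ZT0 and 967 to 1024 FPKM at ZT12 in vehicle. Of 10 other tubulin genes 2 passed the minimum, Tubg1 and Tubd1. Tubg1, the γ-tubulin of nucleation sites, lay at 21.4 to 25.7 FPKM at ZT0 and 21.4 to 23.4 FPKM at ZT12 in vehicle, and its times overlapped in Libramed too. The times of Tubd1 overlapped in vehicle. In Libramed Tubd1 was higher at ZT12, at 1.38 to 1.86 FPKM at ZT0 and 1.97 to 2.55 FPKM at ZT12 (0.31, limma adjusted p = 0.107). Tuba3a and Tuba3b were listed at 0 in all mice. Ttc5, the factor that reads nascent tubulin, measured 3.35 ± 0.51 FPKM at ZT0 and 3.81 ± 0.366 FPKM at ZT12 in vehicle, and 3.45 ± 0.726 and 2.56 ± 0.577 FPKM in Libramed (SD, n = 3). Its time difference passed the test in neither treatment (limma, adjusted p = 0.451 and 0.226).

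**Figure D4:**
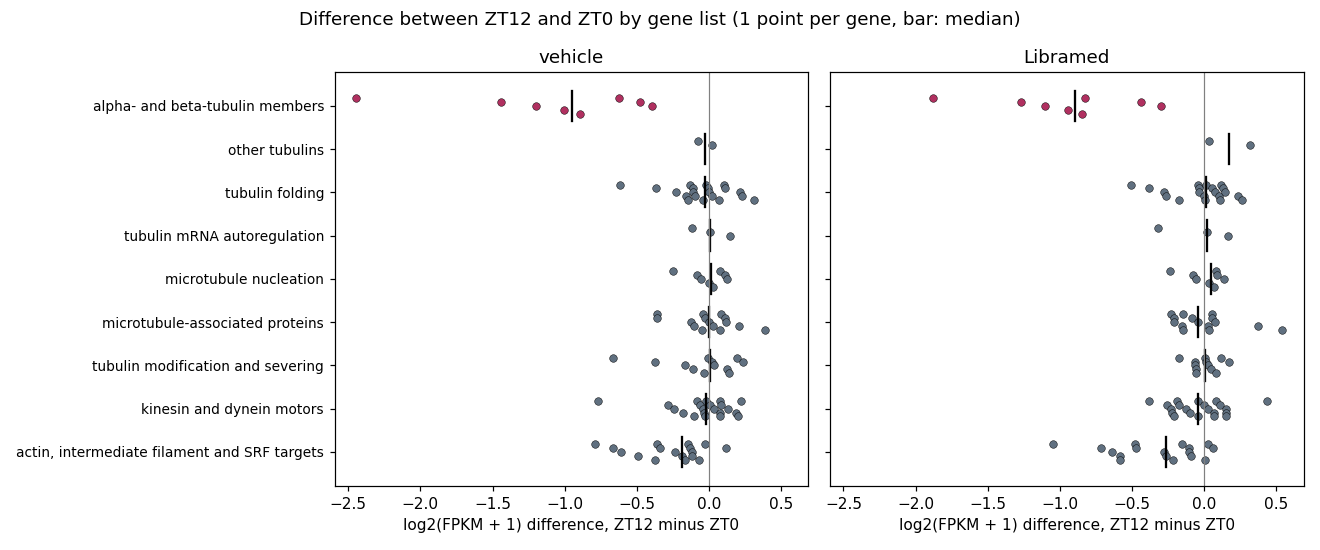
Difference between ZT12 and ZT0 on the log2(FPKM + 1) scale, for vehicle (left) and Libramed (right), with 1 point per gene tested and a bar at each list's median. The 8 tubulin genes, chosen for this difference, run from -2.44 to -0.40 in vehicle and from -1.88 to -0.30 in Libramed, while the medians of the 7 microtubule lists lie between -0.04 and 0.17.

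Other cytoskeletal genes differed as well. Of 17 actin, intermediate filament and SRF target genes tested, 3 were lower and 0 higher at ZT12 in each treatment (17.6% lower, against 4.78% of all genes in vehicle and 5.36% in Libramed), and Actb and Krt18 passed in both. The list was chosen with earlier results of these data known, so its share is not read as an excess over all genes. Actb, cytoplasmic β-actin, went from 344 ± 18.4 to 199 ± 24.97 FPKM in vehicle and from 342 ± 23.9 to 245 ± 19.9 FPKM in Libramed (SD, n = 3, limma adjusted p = 0.01005 and 0.0228). Krt18, a keratin of hepatocytes, went from 235 ± 27.8 to 154 ± 18.7 FPKM and from 239 ± 17.97 to 159 ± 6.76 FPKM (adjusted p = 0.0300 and 0.00859). Without vehicle ZT12 replicate 2 the adjusted p was 0.0514 for Actb and 0.113 for Krt18 in vehicle, and Krt18 also lost the call without vehicle ZT12 replicate 3 or any of the 3 vehicle ZT0 livers. Actb lost the call in Libramed without Libramed ZT0 replicate 1 or 3, or Libramed ZT12 replicate 2 or 3. Actg1, the other cytoplasmic actin, was listed at 1.15 to 1.54 FPKM in the group means and was not called. Like Alb at 0, a value this low may be a failed estimate, so it is not read as a level.

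Markers of non-hepatocyte cells moved with time too. All 4 endothelial markers tested, of 5 listed, were lower at ZT12 in both treatments at unadjusted p under 0.05, as were 13.0% of all genes in vehicle and 13.4% in Libramed, and Clec4g and Kdr passed the adjusted test in Libramed. For the adjusted test, here and for the markers that follow, 4.78% of all genes were lower and 5.62% higher in vehicle, and 5.36% lower and 7.0% higher in Libramed. The summed endothelial level was 23.3 to 32.8 FPKM at ZT0 and 12.2 to 20.7 FPKM at ZT12 in vehicle, and 30.1 to 38.2 against 19.2 to 20.3 FPKM in Libramed. Of 5 stellate cell markers tested, of 6 listed, 0 passed in vehicle and 3 in Libramed, all lower (Des, Reln and Colec11). The summed stellate level was 44.5 to 80.2 against 41.8 to 61.1 FPKM in vehicle and 68.6 to 81.8 against 33.5 to 57.4 FPKM in Libramed. Of 3 cholangiocyte markers tested, Sox9 passed in vehicle and Krt19 in Libramed, both lower, with sums of 2.95 to 6.46 FPKM. The list did not move together: 1 of the 3 was lower at ZT12 in vehicle and 3 in Libramed (medians 0.19 and -0.10, log2 scale). Krt19 was higher in vehicle (0.19) without a call, and Sox9 differed by -0.10 in Libramed. Kupffer cell markers (4 tested of 7 listed, summed 12.9 to 36.7 FPKM) and blood cell markers (3 of 7, 2.15 to 19.98 FPKM) had 0 calls. Hepatocyte markers (6 of 7) gave Cyp2e1 in vehicle and Hnf4a in Libramed, both higher. Of the 6 hepatocyte markers, called or not, 4 were lower at ZT12 in vehicle and 2 in Libramed (medians -0.05 and 0.25, log2 scale). The calls of Clec4g and Kdr held without each of the 6 livers, and those of the other 7 markers named were each lost without 3 to 5 of them. Of the markers in the table, Alb alone was at 0 in all mice. The marker lists too were chosen with earlier results of these data known, so their counts are not read as an excess over all genes. The part of these cells in the tubulin difference was not tested.

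Dividing cells were scarce at both times. None of 8 proliferation genes reached the minimum, and their sum was 0.666 to 2.64 FPKM. Mki67 and Top2a had group means of 0.0265 to 0.0746 and 0.0535 to 0.0926 FPKM.

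The genes whose pattern over the 12 mice was most like that of Tubb2a were found by the root-mean-square difference of standardized profiles, in which 0 is an identical shape. Outside the tubulins they were Chka (choline kinase α, 0.197), Sept9 (a septin, 0.248), Slc30a10 (a manganese transporter, 0.265) and Cxadr (a junctional adhesion protein, 0.275). Chka measured 39.5, 35.1 and 53.7 FPKM at ZT0 and 5.67, 12.3 and 11.7 FPKM at ZT12 in vehicle, and 34.0, 38.6 and 37.9 against 23.6, 11.9 and 9.79 FPKM in Libramed. As for Tubb2a, its lowest vehicle evening liver was replicate 1 and its highest Libramed evening liver was replicate 1. The same was so for Sept9, Slc30a10 and Cxadr. These genes were picked for likeness over these same livers, so agreement liver by liver follows from the choice. Of the other tubulins, Tuba4a was nearest to Tubb2a (0.276), followed by Tubb5 (0.357), Tubb4b (0.411), Tuba1c (0.444), Tuba1b (0.590), Tuba1a (0.606) and Tubb6 (0.963). Their places among all other genes tested were 5, 19, 53, 90, 382, 420 and 2010, in that order. The time difference by which the tubulins were chosen enters this likeness.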

How the data were processed

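Liver RNA from 12 mice was measured by RNA-seq. The authors deposited FPKM values, 1 table for all libraries, and read counts were not used here. The study's methods describe stranded TruSeq libraries, single-end reads of 100 bases, alignment with ELAND to mm10, uniquely aligned reads only and a unit called RPKM, whereas the labels name TruSeq v2 and the submitters' processing notes name TopHat and Cuffnorm (mm10, GRCm38). Which route made the table was not given in the sources used here, so whether counting used strand is unknown. Of its 24138 lines, 289 repeated a symbol and were dropped in favour of the more highly expressed line, leaving 23849 symbols. No tubulin symbol had more than 1 line.

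Values were analysed as log2(FPKM + 1) for the 9806 genes that averaged at least 1 FPKM, with limma 3.58.1 in R 4.3.3 (lmFit, eBayes with trend, two-sided, Benjamini-Hochberg adjustment over all genes tested). Pairs of groups were fitted on their 6 mice, and the interaction and the treatment effect over both times on all 12. This fold scale understates changes of low genes. The fit was tested on simulated data with known changes. The labels call the 3 livers of a group biological replicates. The tubulin genes and all gene lists were chosen with earlier results of these data known. The times of day were not compared by a test for the tubulin genes. Every tubulin gene is given by its values. Treatment statistics are given where p was under 0.05, with the largest difference and the lowest p otherwise, and list genes where they passed in both treatments, beside Ttc5, Actb, Actg1, Mki67, Top2a, Dbp and Arntl, which were named whatever their values. Of the clock genes, used to check labels, only Dbp and Arntl are given. Genes of short lists that passed in 1 treatment, Tubg1, Tubd1, Tuba3a, Tuba3b and Stk16 were named after their values were seen. The 5 genes outside the tubulins with the pattern nearest to Tubb2a were also to be named, of which 1 is not reported here. Svbp (of the pathway lists) and Emr1 (of the Kupffer list) had no line under those symbols. Other pseudocounts, minimum levels, scalings, tests, fits and omissions of single livers were tried. Sequences came from GENCODE vM21 and RefSeq (GRCm38.p6). Tools were Python 3.11.15 with numpy 2.4.6, pandas 2.3.3, scipy 1.17.1 and matplotlib 3.10.9.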

Additional observations from a re-analysis of the deposited data

Results flagged for a closer look

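Of 37 genes named in the text and tested (without Tubd1), 7 had an interaction of time and treatment at unadjusted p under 0.05. The share of all genes was 6.63%, and none of the 7 was a tubulin gene of the 10. None passed the adjusted test (limma). Ttll12, Atat1, Sox9, Klc4 and Krt19 were named because they passed over time in 1 treatment only, which favours an interaction. The 7 of 37 is therefore not read as an excess over all genes. For Ttc5, the factor that reads nascent tubulin, the interaction was -0.47 (log2 scale, SE 0.203, limma adjusted p = 0.732), with time differences of 0.15 in vehicle and -0.32 in Libramed. At ZT12 all 3 Libramed livers (3.20, 2.09 and 2.39 FPKM) lay below all 3 vehicle livers (3.64, 3.55 and 4.23 FPKM), and at ZT0 the treatments overlapped. Of all genes, 13.1% had no overlap in either direction at ZT12.

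Atat1, the α-tubulin acetyltransferase, had an interaction of 0.48 (SE 0.146, limma adjusted p = 0.560), with time differences of -0.66 in vehicle and -0.18 in Libramed. Ttll12 had one of 0.32 (SE 0.101, limma adjusted p = 0.597), with -0.37 and -0.06, and the cholangiocyte marker Sox9 one of 0.82 (SE 0.212, limma adjusted p = 0.519), with -0.92 and -0.10. For these 3 genes every Libramed liver lay below every vehicle liver at ZT0 and above every one at ZT12. Of all genes, 15.1% had no overlap in either direction at ZT0 and 13.1% at ZT12. The share of all genes that crossed in this way was not computed. The interaction was 0.24 (SE 0.102, limma adjusted p = 0.734) for Klc4 and -1.03 (SE 0.359, limma adjusted p = 0.656) for Krt19. For Dbp it was -1.61 (SE 0.722, limma adjusted p = 0.743), where the vehicle ZT0 livers spread from 1.85 to 17.9 FPKM and the Libramed ones lay between 18.2 and 27.2 FPKM.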

How the results depend on the processing

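The number of tubulin genes lower at ZT12 without overlap was 6 to 8 in vehicle and 8 in Libramed when single livers were left out. Leaving out a liver can only keep or raise this count, as fewer values have to be separated. The share of all genes was not computed for these omissions. Tubulin genes with p under 0.05 numbered 0 to 1 at ZT0, 1 to 2 at ZT12, 0 to 1 over both times and 0 to 1 for the interaction over these omissions. Adjusted calls were 0 throughout. At ZT12 the fit over all 12 mice gave 1, while Tubb2b joined Tuba1c and Tuba4a with no minimum FPKM (0.09), and Tubb2a with a Cyber-T style test (0.61). At ZT0 calls were gained for Tuba1a (0.59) without vehicle ZT0 replicate 1 and Tubb6 (-0.35) without replicate 3. The interaction gained Tuba1a (-0.67) without vehicle ZT0 replicate 1, Tubb6 (0.37) without replicate 3, and Tuba1c (0.62) without vehicle ZT0 replicate 2 or Libramed ZT0 replicate 1. Pathway calls in vehicle numbered 7 in the fit over all 12 mice and 0 to 4 over the omissions, with 0 without vehicle ZT12 replicate 2 and 1 without replicate 3. In Libramed they numbered 1 with no minimum FPKM, 4 with a Cyber-T style test and 1 to 3 over the omissions, with 1 without Libramed ZT0 replicate 1, 2 or 3 or Libramed ZT12 replicate 3. With a pseudocount of 0.1 the Tuba1a time difference was -0.88 in vehicle and -1.64 in Libramed. The Actg1 time difference in vehicle ran from -0.30 to 0.073 over the omissions, reversed without vehicle ZT0 replicate 1. Dbp in vehicle ran from 2.35 to 3.71 and lost its call without vehicle ZT0 replicate 2 or any vehicle ZT12 liver. Same-numbered livers did not deviate together (correlations from -0.28 to 0.26), so the numbers were not taken as pairs. With the replicate block the pathway calls were 2 in vehicle and 2 in Libramed, and no tubulin call changed. The cause of these changes was not tested. Among single genes, 114 values kept their direction but lost the call under an alternative. Depth per library is unknown, so no counting interval could be given for low genes such as Tubb2b and Tuba8.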
